A study of Rattus norvegicus with 6 samples.

Results

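The genes described here are 10 imprinted growth regulators that lie outside the insulin-like growth factor axis: H19, Plagl1, Dlk1, Cdkn1c, Grb10, Sfmbt2, Peg3, Mest, Meg3 and Gnas. They were chosen by their known imprinting in mouse together with values from these same arrays, so the differences below describe them and carry no test. Every probe set annotated to exactly 1 of the symbols was taken, which gave 15 of 31042 probe sets and 9 of the 10 genes. No probe set carried the symbol of Peg3, and its level was not analysed here.

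Expression was measured in IEC-6, a non-transformed rat line with features of small intestinal crypt cells, on 6 single-colour Affymetrix arrays. The ShSuz12 cells carried a lentiviral short hairpin RNA against Suz12, a core subunit of Polycomb repressive complex 2 (PRC2), and the ShControl cells, called control in the labels, carried a lentiviral hairpin of scrambled sequence. Both were puromycin-selected cell populations, and each supplied RNA from 3 independent experiments. Each group is therefore 1 infected population of 1 cell line made with 1 hairpin, and the spread between arrays is the spread between experiments with it.

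An imprinted gene is transcribed mainly from the copy inherited from the mother or from the father. Often, though not for every imprinted gene, this is because a DNA methylation mark set in the germ line differs between the copies. Many imprinted genes sit in domains, in which maternally and paternally expressed genes share an imprinting control region. Many promote or restrain growth of the embryo and placenta. PRC2 adds methyl groups to lysine 27 of histone H3, a mark of silenced chromatin, and in mouse it takes part in silencing some imprinted genes, among them genes of the Kcnq1 domain in the placenta. Parental expression is given below as it is known from mouse. The arrays measure the RNA of both parental copies together and do not show which copy was transcribed.

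The targeting sequence of the Suz12 hairpin is shown because every comparison rests on it.
Suz12 hairpin target: gctgacaatcaaatgaatcat
H19, the host RNA of a microRNA, is represented by both mature arms of miR-675 from RefSeq, with the seed (bases 2 to 8) in capitals. On GRCr8 they lie on the minus strand at chr1:207161800-207161821 for the 5p arm and chr1:207161766-207161786 for the 3p arm.
rno-miR-675-5p: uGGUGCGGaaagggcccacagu
rno-miR-675-3p: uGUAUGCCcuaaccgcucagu
The seeds differ between the arms, and each occurred in 1 of 693 mature rat sequences of that table. The H19 probe set measures the host RNA, and the mature microRNA was not measured here.

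Promoters are shown for 4 members that differed between the groups, as RefSeq gives them on GRCr8, from 250 bases before to 50 bases after the annotated start and read along the gene's own strand. They lie at chr1:9297214-9297513 on the plus strand for Plagl1, chr6:134192347-134192646 on the plus strand for Dlk1, chr14:90816338-90816637 on the minus strand for Grb10 and chr17:73032123-73032422 on the minus strand for Sfmbt2. Capitals mark CG dinucleotides, the sites of DNA methylation.
Plagl1: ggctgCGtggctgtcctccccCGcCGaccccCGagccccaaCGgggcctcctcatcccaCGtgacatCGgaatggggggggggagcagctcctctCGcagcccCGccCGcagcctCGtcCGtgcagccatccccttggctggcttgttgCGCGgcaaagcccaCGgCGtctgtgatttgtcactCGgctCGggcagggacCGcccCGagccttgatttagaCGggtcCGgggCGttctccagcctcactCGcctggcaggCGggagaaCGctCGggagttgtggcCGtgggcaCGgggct
Dlk1: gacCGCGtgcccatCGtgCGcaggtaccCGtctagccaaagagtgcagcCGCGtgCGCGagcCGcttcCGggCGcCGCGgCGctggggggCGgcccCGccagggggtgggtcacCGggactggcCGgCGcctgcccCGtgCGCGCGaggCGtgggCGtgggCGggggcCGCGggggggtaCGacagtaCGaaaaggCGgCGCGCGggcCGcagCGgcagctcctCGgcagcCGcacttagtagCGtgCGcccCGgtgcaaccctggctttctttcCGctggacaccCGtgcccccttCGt
Grb10: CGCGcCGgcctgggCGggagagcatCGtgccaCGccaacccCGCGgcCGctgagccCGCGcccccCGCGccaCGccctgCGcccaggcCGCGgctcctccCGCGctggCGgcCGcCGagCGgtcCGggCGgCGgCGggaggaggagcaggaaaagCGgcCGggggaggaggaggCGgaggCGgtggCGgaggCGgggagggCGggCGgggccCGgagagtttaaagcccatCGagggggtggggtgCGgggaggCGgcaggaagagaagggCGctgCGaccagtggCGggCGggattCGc
Sfmbt2: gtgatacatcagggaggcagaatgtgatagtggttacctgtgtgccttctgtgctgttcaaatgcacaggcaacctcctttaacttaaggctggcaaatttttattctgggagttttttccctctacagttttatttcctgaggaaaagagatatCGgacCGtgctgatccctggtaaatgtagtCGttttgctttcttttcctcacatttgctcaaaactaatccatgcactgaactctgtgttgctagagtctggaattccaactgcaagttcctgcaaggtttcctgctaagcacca
Plagl1, Dlk1 and Grb10 have promoters dense in CG, with 29, 45 and 44 of these dinucleotides in 300 bases, while Sfmbt2 has 3. The median over all 33469 promoters of the table was 7.

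Suz12 itself was lower on every ShSuz12 array. Its log2 values were 5.82, 5.77 and 5.91 in ShSuz12 cells and 8.45, 8.55 and 8.77 in ShControl cells, a log2 difference of -2.76 (standard error 0.09, adjusted p = 2.78e-07 from limma). The deposited values were log2 values from the RMA method, which corrects background, brings the arrays to a common distribution and gives 1 value per probe set and array. Array medians were 6.26 to 6.27 in ShSuz12 cells and 6.15 to 6.17 in ShControl cells, and arrays correlated at 0.997 to 0.998 within groups and at 0.979 to 0.980 between them. Below, a difference is ShSuz12 minus ShControl on the log2 scale. A level is also given as the percentage of the array's probe sets that lay below it. That is a rough guide only, since levels of different probe sets cannot be compared strictly.

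Of the 15 member probe sets, 7 were higher on all 3 ShSuz12 arrays than on any ShControl array, 4 were lower on all of them, and 4 overlapped between the groups. Over all probe sets, 19.4% lay higher without overlap and 28.1% lower without overlap. By size alone, with no test, 5 member probe sets were at least 2-fold higher (H19, Plagl1, Dlk1, Cdkn1c and 1 of Sfmbt2), 1 was at least 2-fold lower (Grb10) and 9 differed by less than 2-fold, against a background of 3.1% of probe sets higher and 0.396% lower by that size. Because these arrays had a part in choosing the members, nothing follows from those counts about the members as a group. With each gene standing by its brightest probe set, the members' median difference was 1.38, with a range of -1.16 to 2.31, and the median over all genes was -0.05.

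**Figure D1:**
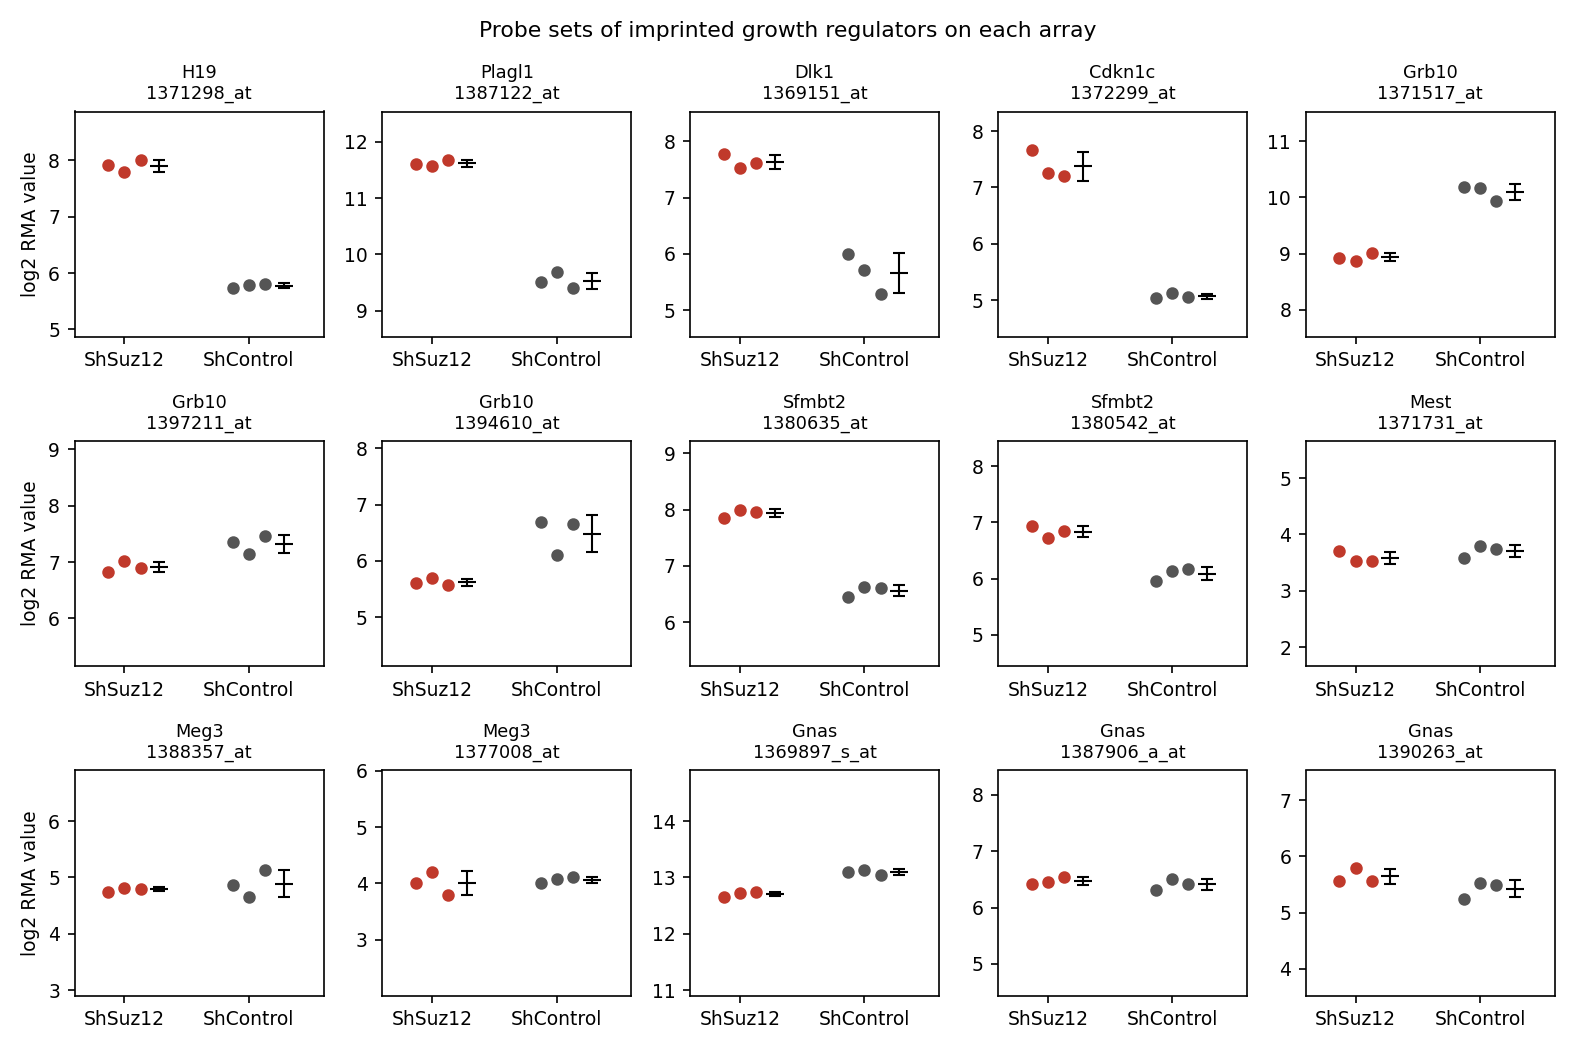
Log2 value (vertical axis, RMA) of the member probe sets on each array, with ShSuz12 arrays left of ShControl arrays, the mean and SD of each group beside its 3 points and a span of equal size in every panel. H19, Plagl1, Dlk1, Cdkn1c and Sfmbt2 lie higher in ShSuz12 cells, Grb10 lies lower, and the Mest and Meg3 groups overlap.

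Among the paternally expressed members, Plagl1 had the largest difference. The gene, also called Zac1, encodes a zinc finger transcription factor that restrains proliferation. Its probe set 1387122_at had log2 values of 11.60, 11.57 and 11.68 in ShSuz12 cells and 9.51, 9.68 and 9.40 in ShControl cells. All 3 ShSuz12 arrays were high, and 1.89 log2 units separated the nearest arrays of the groups. The means were 11.62 ± 0.06 in ShSuz12 cells and 9.53 ± 0.14 in ShControl cells (SD, n = 3 each), a difference of 2.09 (standard error 0.08) or 4.26-fold. Its signal was already high in ShControl cells, above 88.1% of probe sets, and stood above 98.1% in ShSuz12 cells.

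Dlk1, also known as Pref-1, encodes a membrane protein with EGF repeats that is related to Notch ligands and inhibits fat cell differentiation. Its probe set 1369151_at had log2 values of 7.77, 7.52 and 7.61 in ShSuz12 cells and 6.00, 5.71 and 5.29 in ShControl cells. The groups stood 1.52 apart at their nearest arrays, and the ShControl arrays were the more scattered. The means were 7.64 ± 0.12 in ShSuz12 cells and 5.67 ± 0.36 in ShControl cells (SD, n = 3 each), a difference of 1.97 (standard error 0.16) or 3.91-fold. In ShControl cells the signal was under the array median, above 43.8% of probe sets, against 67.0% in ShSuz12 cells.

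Meg3, a long noncoding RNA made from the maternal copy of the Dlk1 domain, did not move with Dlk1. Its brighter probe set 1388357_at had log2 values of 4.75, 4.82 and 4.80 in ShSuz12 cells and 4.87, 4.66 and 5.14 in ShControl cells, and the groups overlapped (difference -0.10, standard error 0.11). The other, 1377008_at, had 4.01, 4.21 and 3.80 in ShSuz12 cells and 4.01, 4.07 and 4.11 in ShControl cells, again with overlap (difference -0.06, standard error 0.10). Both were dim, above 30.5% and 16.2% of probe sets in ShSuz12 cells, so a small change of Meg3 RNA could have been missed. Dio3, the deiodinase gene at the other end of the domain, had a difference of 0.09 (standard error 0.05, adjusted p = 0.256 from limma).

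Sfmbt2 encodes a Polycomb-group protein with MBT repeats and is imprinted mainly in extraembryonic tissue in mouse. Both of its probe sets were higher without overlap. At 1380635_at the log2 values were 7.86, 7.99 and 7.96 in ShSuz12 cells and 6.45, 6.62 and 6.61 in ShControl cells, a difference of 1.38 (standard error 0.07) or 2.60-fold. At 1380542_at they were 6.93, 6.73 and 6.85 in ShSuz12 cells and 5.96, 6.13 and 6.17 in ShControl cells, a difference of 0.75 (standard error 0.08) or 1.68-fold. The probe sets of Sfmbt2 thus shared the direction, and 1380542_at fell short of the 2-fold limit.

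Mest, a paternally expressed gene for a protein of the alpha/beta-hydrolase fold, was close to the bottom of the arrays in both groups. Probe set 1371731_at had log2 values of 3.71, 3.52 and 3.53 in ShSuz12 cells and 3.58, 3.80 and 3.74 in ShControl cells, with overlap and a difference of -0.12 (standard error 0.08). It stood above 7.72% of probe sets in ShSuz12 cells and 9.81% in ShControl cells. Its neighbour Copg2, a coat protein gene, had a difference of 0.12 (standard error 0.09, adjusted p = 0.335 from limma).

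Among the maternally expressed members, Cdkn1c had the largest difference of all member probe sets. It encodes p57, an inhibitor of cyclin-dependent kinases. Probe set 1372299_at had log2 values of 7.67, 7.26 and 7.20 in ShSuz12 cells and 5.03, 5.12 and 5.06 in ShControl cells. The groups were 2.08 apart, and ShSuz12 replicate 1 was the highest array. The means were 7.38 ± 0.26 in ShSuz12 cells and 5.07 ± 0.04 in ShControl cells (SD, n = 3 each), a difference of 2.31 (standard error 0.12) or 4.94-fold. Over all probe sets, 212 had a larger difference.

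H19, a noncoding RNA that shares enhancers with Igf2 and restrains growth in mouse, was higher as well. Probe set 1371298_at had log2 values of 7.92, 7.79 and 8.01 in ShSuz12 cells and 5.73, 5.79 and 5.81 in ShControl cells. The groups were tight and 1.99 apart. The means were 7.91 ± 0.11 in ShSuz12 cells and 5.77 ± 0.04 in ShControl cells (SD, n = 3 each), a difference of 2.13 (standard error 0.07) or 4.39-fold. Its signal stood above 70.4% of probe sets in ShSuz12 cells and 45.2% in ShControl cells.

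Grb10 was lower in ShSuz12 cells. It encodes an adaptor that inhibits signalling by the insulin and IGF receptors, and in mouse it is maternally expressed in most tissues and paternally in neurons. Its brightest probe set 1371517_at had log2 values of 8.92, 8.87 and 9.01 in ShSuz12 cells and 10.18, 10.17 and 9.93 in ShControl cells, a difference of -1.16 (standard error 0.08), or 2.23-fold lower in ShSuz12 cells. Only 72 probe sets of all had a more negative difference. Probe set 1394610_at had 5.61, 5.69 and 5.57 in ShSuz12 cells and 6.69, 6.10 and 6.66 in ShControl cells (difference -0.86, standard error 0.15). Probe set 1397211_at had 6.83, 7.01 and 6.89 in ShSuz12 cells and 7.35, 7.14 and 7.47 in ShControl cells (difference -0.41, standard error 0.09). All 3 probe sets of Grb10 were lower without overlap, by amounts that differed between them. Ddc, the dopa decarboxylase gene next to Grb10, had a difference of -0.17 (standard error 0.08, adjusted p = 0.134 from limma).

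Gnas encodes the stimulatory G protein alpha subunit and, from other start sites, transcripts that in mouse come from the maternal or the paternal copy. Its 3 probe sets did not share a direction. The brightest, 1369897_s_at, had log2 values of 12.66, 12.72 and 12.74 in ShSuz12 cells and 13.10, 13.14 and 13.05 in ShControl cells, lower without overlap (difference -0.39, standard error 0.05) and above 99.4% of probe sets in ShSuz12 cells. Probe set 1390263_at had 5.56, 5.80 and 5.57 in ShSuz12 cells and 5.25, 5.53 and 5.49 in ShControl cells, separated by 0.03 (difference 0.22, standard error 0.10). Probe set 1387906_a_at had 6.42, 6.45 and 6.55 in ShSuz12 cells and 6.32, 6.50 and 6.41 in ShControl cells, with overlap (difference 0.06, standard error 0.07). The last of these turned to -0.04 when array medians were subtracted and to -0.03 after a second quantile normalization, so it has no settled direction. The sources used here do not say which transcripts each probe set measures.

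The probe sets nearest the 2-fold limit were those of Grb10 and Sfmbt2. Just inside it lay 1371517_at of Grb10 (-1.16) and 1380635_at of Sfmbt2 (1.38), and just outside it lay 1394610_at of Grb10 (-0.86) and 1380542_at of Sfmbt2 (0.75). Without ShControl replicate 2, the Grb10 probe set 1394610_at came to -1.05, so that member probe sets at least 2-fold lower numbered 2 in place of 1.

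Set against parental expression in mouse, the members that were higher came from both sides. Of the 5 paternally expressed members 4 were measured, and Plagl1, Dlk1 and Sfmbt2 were at least 2-fold higher while Mest was not. Of the 5 with maternal expression in at least some tissues, H19 and Cdkn1c were at least 2-fold higher, Grb10 was at least 2-fold lower, and Meg3 and Gnas differed by less than 2-fold at their brightest probe sets. In bulk RNA, more cells with a transcript and more transcript per cell cannot be told apart, nor can 1 active copy be told from both.

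The domains around the members were examined with the other imprinted genes, each standing by its brightest probe set. Of 22 such genes listed in the members' domains, 15 were measured, 2 rose past 2-fold (Igf2 and Apeg3) and 0 fell. By the same limit, 3.82% of all genes rose and 0.422% fell. Igf2, the growth factor gene that shares its enhancers with H19, had log2 values of 9.86, 9.97 and 9.75 in ShSuz12 cells and 5.80, 5.26 and 5.81 in ShControl cells at 1367571_a_at, a rise of 4.23 (standard error 0.15, adjusted p = 3.97e-07 from limma). H19 and Igf2 are expressed from opposite parental copies in mouse and were both higher here. The other 3 probe sets of Igf2 were dim, with differences of -0.09 to -0.01. Ins2, the insulin gene beside Igf2, had a difference of -0.11 (standard error 0.10, adjusted p = 0.440 from limma).

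In the Peg3 domain, Apeg3 was measured in place of the unrepresented Peg3. Apeg3 is annotated by RefSeq within Peg3 on the opposite strand. Its brightest probe set 1372390_at had log2 values of 8.63, 8.72 and 8.57 in ShSuz12 cells and 4.34, 5.03 and 4.14 in ShControl cells, a rise of 4.13 (standard error 0.20, adjusted p = 2.79e-06 from limma). Another, 1382118_at, rose by 1.41 (adjusted p = 3.00e-04 from limma), and the remaining pair had differences of 0.26 and 0.17. Whether these probe sets also take up Peg3 RNA was not tested. Usp29, a deubiquitinase gene of the same domain, had a difference of -0.02 (adjusted p = 0.797 from limma).

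Cdkn1c stood apart in size from its measured neighbours in the Kcnq1 domain, although the difference between genes was not tested. Because Cdkn1c was chosen with values from these arrays, that distance only describes it and is no finding about the domain. Phlda2, which restrains placental growth in mouse, rose by 0.65 (standard error 0.12, adjusted p = 0.00387 from limma). Cd81, a tetraspanin, rose by 0.19 (adjusted p = 0.0204 from limma). Kcnq1, the potassium channel gene of the domain, fell by 0.32 (standard error 0.07, adjusted p = 0.0069 from limma). Its probe set was dim, above 26.3% of probe sets in ShSuz12 cells and 32.3% in ShControl cells. These changes were under 2-fold. Ascl2, Tssc4, Osbpl5, Nap1l4 and Slc22a18 ran from -0.22 to 0.04, and none of these 5 passed an adjusted p of 0.05 from limma. Kcnq1ot1, the noncoding RNA whose promoter lies in the control region, had no probe set under its symbol and was not analysed here.

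**Figure D2:**
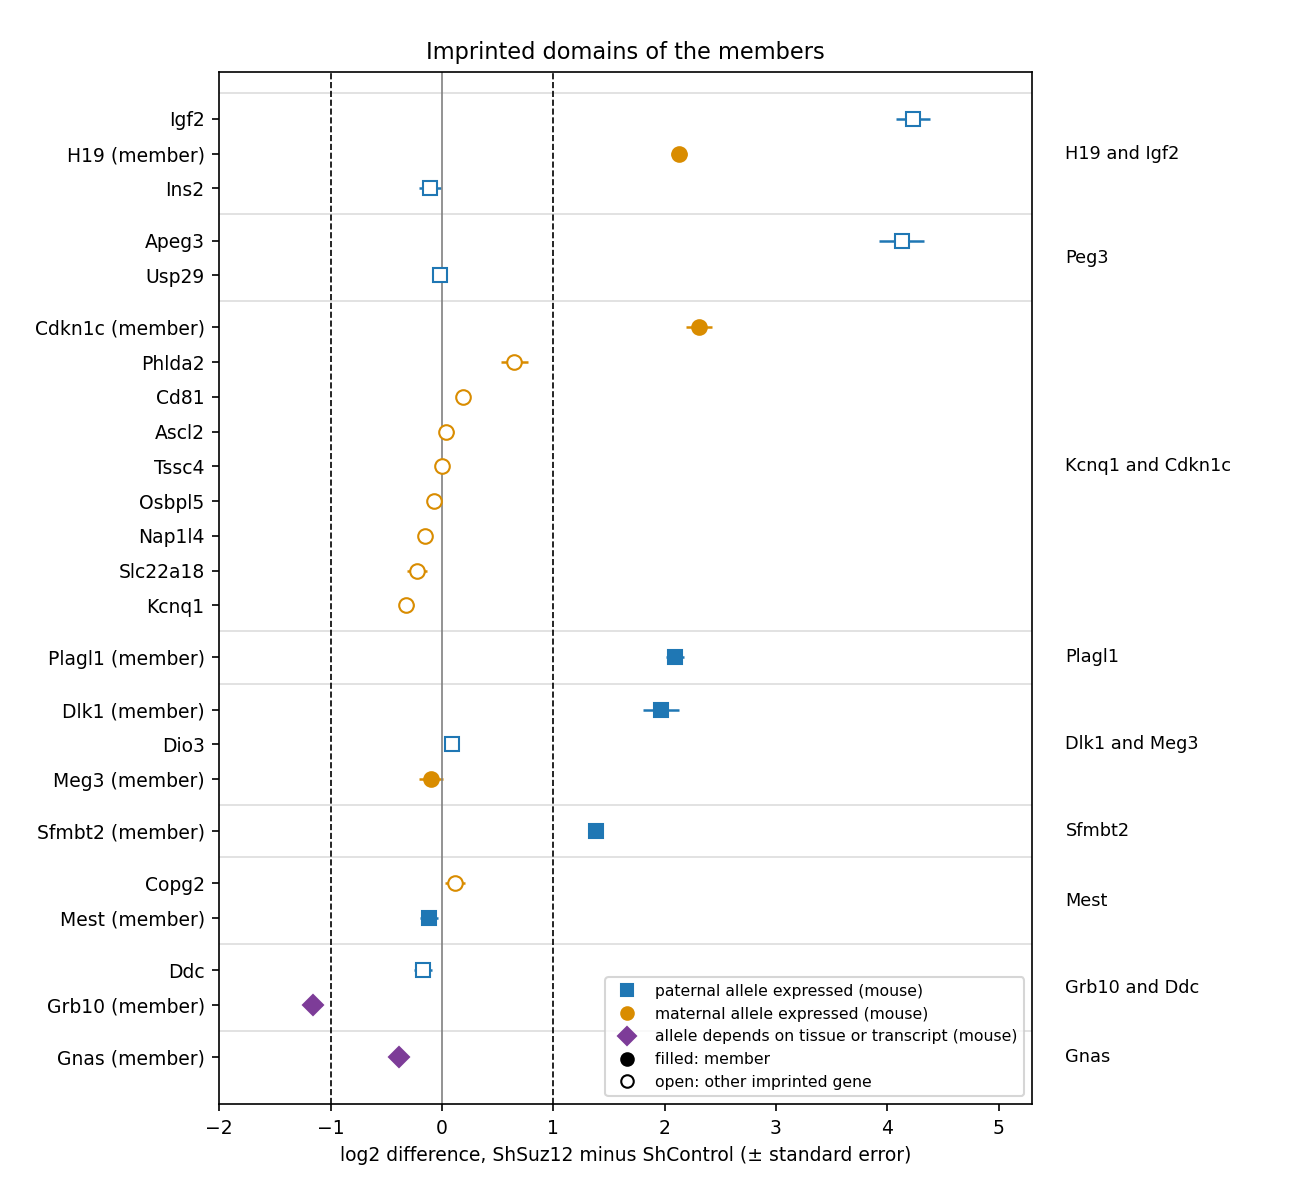
Log2 difference, ShSuz12 minus ShControl (horizontal axis, bars are standard errors), of the brightest probe set of each measured gene in the members' imprinted domains; filled symbols are members, colours give the expressed parental copy in mouse, and dashed lines mark 2-fold. Cdkn1c at 2.31 lies apart from the other genes of its domain, which run from -0.32 to 0.65, and Dlk1 at 1.97 lies apart from Meg3 and Dio3. The members were chosen with values from these arrays, so these distances are a description only.

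Across the genome, 58 other imprinted genes were listed and 43 were measured. The list was drawn up with earlier results of these data known, so its counts describe it and are no independent test. With an adjusted p under 0.05 from limma and a change of 2-fold or more, 6 rose, 0 fell and 37 did not pass, where 3.82% of all 14217 genes rose and 0.422% fell, and 0 of the imprinted genes also fell by 2-fold at an unadjusted p under 0.05 or by the methods' t-test. Without the 2-fold limit 11 rose, 4 fell and 28 did neither, against 17.1% and 23.3% of all genes that were higher and lower at that limit. The median difference was 0.00 over the other imprinted genes, with a range of -0.60 to 6.01. The 6 comprised 4 of 19 paternally expressed and 2 of 24 maternally expressed genes measured, and the difference between these shares was not tested. These classes are those known from mouse, for some genes only in some tissues, and the expressed copy was not measured in these cells.

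Ndn, the paternally expressed necdin gene, a growth suppressor of neurons, rose most, with 11.13 ± 0.02 in ShSuz12 cells and 5.12 ± 0.18 in ShControl cells (SD, n = 3 each), a log2 difference of 6.01 (standard error 0.09, adjusted p = 8.61e-09 from limma). Calcr, the calcitonin receptor gene, averaged 8.52 ± 0.17 in ShSuz12 cells and 3.86 ± 0.24 in ShControl cells, a rise of 4.66 (standard error 0.13, adjusted p = 1.37e-07 from limma). Zdbf2, a paternally expressed zinc finger gene that promotes postnatal growth in mouse, averaged 8.42 ± 0.12 in ShSuz12 cells and 5.90 ± 0.13 in ShControl cells, a rise of 2.52 (adjusted p = 4.06e-07 from limma). These genes were at or under the array median in ShControl cells. Dcn, the decorin gene, lay nearest the limit among those that passed, rising by 1.32 (adjusted p = 1.33e-06 from limma) from an already high level. Peg12, nearest among those that did not reach 2-fold, rose by 0.67 (standard error 0.05, adjusted p = 2.73e-05 from limma).

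**Figure D3:**
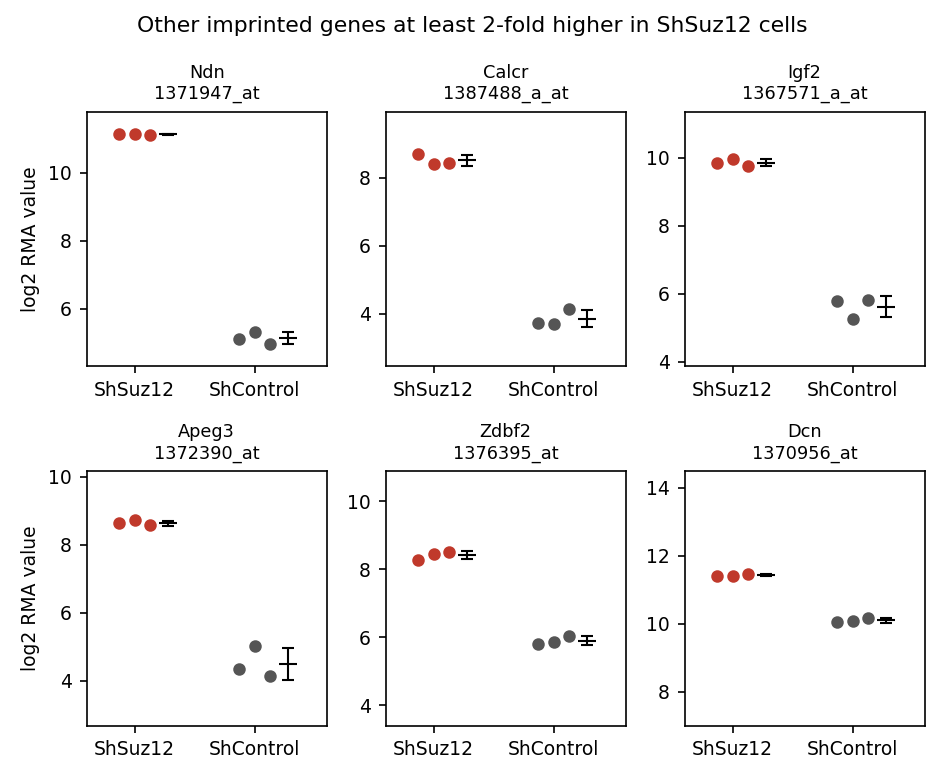
Log2 value (vertical axis, RMA) on each array of the 6 other imprinted genes that rose at least 2-fold, with ShSuz12 arrays left of ShControl arrays and the mean and SD of each group beside its points. The groups do not overlap in any of the 6, and the differences run from 1.32 for Dcn to 6.01 for Ndn.

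Genes that set or keep imprints or PRC2 marks were listed as well, again with earlier results known, and 24 of 28 were measured. By limma 0 rose by 2-fold, 1 fell and 23 did not pass, where 3.82% of all genes rose and 0.422% fell. The 1 that fell was Suz12, the hairpin's own target. At an unadjusted p under 0.05, or by the methods' t-test, 0 rose by 2-fold. Without the 2-fold limit 1 rose and 8 fell of the 24, with Suz12 among the 8. Over all genes, 17.1% were higher and 23.3% lower at that limit. The median difference was -0.14, against -0.05 over all genes. Ezh2, the methyltransferase of PRC2, fell by 0.61 (adjusted p = 2.25e-04 from limma), the nearest to 2-fold after Suz12. Eed, another core subunit, had a difference of -0.11 (adjusted p = 0.173 from limma). Named after their values were seen, Uhrf1, a cofactor of maintenance DNA methylation, fell by 0.56 (adjusted p = 4.55e-04 from limma) and Tet2, which oxidizes methylated cytosine, rose by 0.40 (adjusted p = 0.00133 from limma). The rest of the 8 were Mbd3 (-0.37), Tet3 (-0.36), Arid4a (-0.26), Zfp445 (-0.25) and Zfp57 (-0.17). Adjusted p-values of these genes from limma ran from 9.64e-04 for Mbd3 to 0.0491 for Zfp57. Dimmer probe sets of Tet3, Arid4a and Zfp445 had adjusted p-values from limma of 0.113 or more. That of Zfp445 had a difference of 0.14. Dnmt1, the maintenance DNA methyltransferase, had a difference of -0.13 (adjusted p = 0.118 from limma). Their part in the members' values was not tested.

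Markers of cell types were set beside these genes, because several members are high in mesenchymal tissue. Of 14 fibroblast and smooth muscle markers, all measured, 5 rose past 2-fold (Lum, Col1a2, Col3a1, Pdgfrb and Dcn), 0 fell past it and 10 lay above the array median in both groups. Over all genes, 3.82% rose past 2-fold by limma and 0.422% fell past it. Dcn is also counted above among the other imprinted genes that rose. The smooth muscle genes Acta2 and Tagln fell by 0.66 (adjusted p = 4.22e-05 from limma) and 0.35 (adjusted p = 0.00142 from limma), less than 2-fold. The list's summed linear signal, in which bright probe sets weigh most, was 62426 to 64130 in ShSuz12 cells and 44079 to 47422 in ShControl cells, and without Col3a1, which rose by 2.33, it was 51250 to 52914 in ShSuz12 cells and 42020 to 44992 in ShControl cells. Of 18 intestinal epithelial markers 17 were measured, with 3 that rose past 2-fold (Lgr5, Cdx2 and Krt19), 0 that fell past it, and 5 above the array median in ShSuz12 cells and 3 in ShControl cells. Cdh1, the E-cadherin gene, fell by 0.76 (adjusted p = 6.38e-05 from limma) and Krt8, a keratin gene, by 0.41 (adjusted p = 9.64e-04 from limma), and both stood above at least 87.2% of probe sets in either group. The epithelial sum was 5050 to 5228 in ShSuz12 cells and 7220 to 8072 in ShControl cells, but without Cdh1 it turned round, with 1485 to 1554 in ShSuz12 cells and 1368 to 1442 in ShControl cells. The marker left out of each sum was the one whose linear signal differed most, a step added after the values were seen. Epcam, Krt18, Fabp2 and Muc2 stood above fewer than 20% of probe sets in either group. None of 7 leukocyte, 5 endothelial or 8 neuronal and glial markers measured passed 2-fold, with sums of 1069 to 1135, 127 to 136 and 865 to 924 in ShSuz12 cells and 1271 to 1310, 108 to 121 and 768 to 804 in ShControl cells. Thus 0 markers of the 5 lists fell at 2-fold by limma, at an unadjusted p under 0.05 too. With so small a share of all genes falling, that count says little about the markers. The part of the fibroblast and epithelial markers in the members' values was not tested.

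Promoter sequence did not itself enter the choice of members, but their known imprinting did, so the counts below are a description and no independent test. RefSeq gave 10 promoters for 8 of the 10 members, and H19 and Cdkn1c had none in the table. CG dinucleotides numbered 45 for Dlk1, 44 for Grb10, 29 for Plagl1, 18 for Mest, 16 for Peg3, 13 for Meg3 and 3 for Sfmbt2, and 18, 12 and 41 for the promoters of Gnas. Among members that were higher, those with a promoter in the table (Plagl1, Dlk1 and Sfmbt2) thus ranged from 3 to 45. Grb10, which was lower, had 1 fewer than Dlk1. The windows follow annotated starts, and the starts used in these cells were not measured. Motifs were also searched on both strands, and none of them contains another. TGCCGC, the hexamer that ZFP57 binds when methylated, occurred in 4 of the 10 promoters (Plagl1, Dlk1, Meg3 and Grb10) and in 11.7% of all. The hexamer contains a CG, and the promoters of Plagl1, Dlk1 and Grb10 are dense in CG. The share over all promoters is therefore not a like background for them. CCCTC, part of the CTCF motif, occurred in 5 and in 64.7% of all, and GCCATNTT, a YY1-type motif, in 0 and in 6.96% of all. A match describes the letters of the window and shows no binding.

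**Figure D4:**
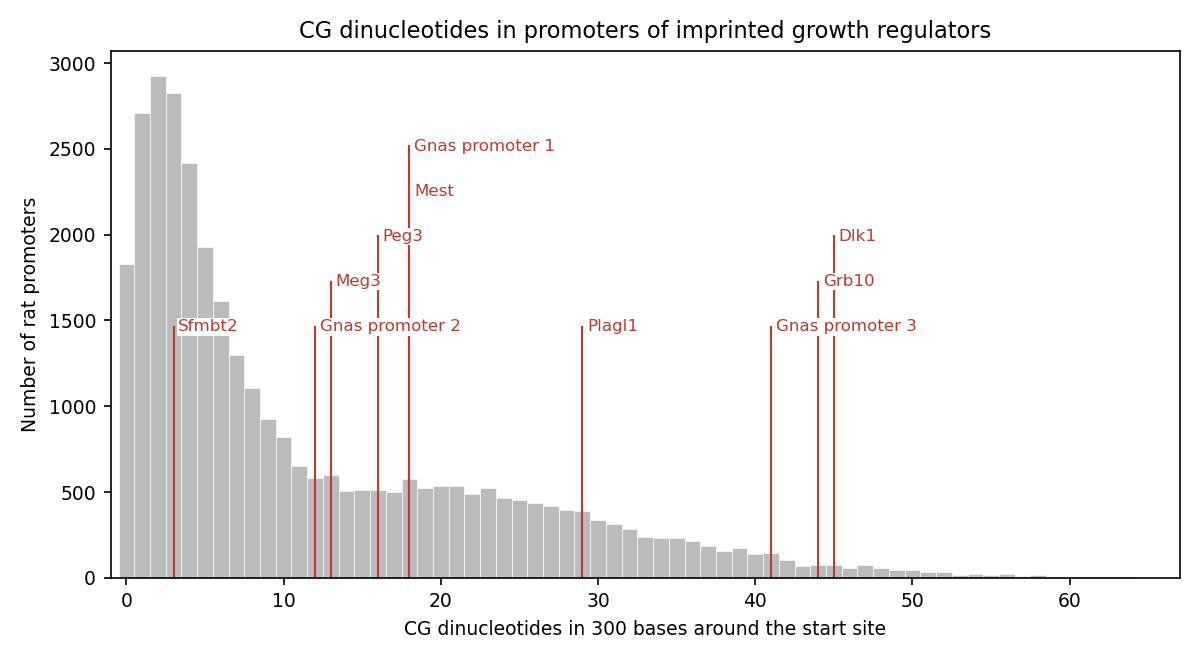
Number of rat RefSeq promoters (vertical axis) by CG dinucleotides in their 300 bases around the start site (horizontal axis), with lines at the values of the members. Most lines lie right of the median of 7, and Sfmbt2 at 3 lies left of it.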

How the data were processed

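Gene expression was measured in ShSuz12 and ShControl IEC-6 cells, 3 arrays each. The authors ran RMA in FlexArray and deposited 1 log2 value per probe set and array; the sources used here do not give the version of RMA. RMA shrinks differences of dim probe sets. Scanner files were not used here.

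After leaving out 57 control probe sets, 31042 were compared in limma (version 3.58.1, R version 4.3.3; lmFit, then eBayes, two-sided), and Benjamini-Hochberg adjustment ran over all of them. Precision is limited by the number of arrays, and p-values measure only the spread between experiments. The script was tested on simulated data. A call needed an adjusted p under 0.05 and 2-fold; members were counted by size alone. Platform annotation named 1 symbol for 20826 probe sets, several for 436 and none for 9780; the brightest probe set stood for each of 14217 genes.

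The members, the lists and the marker genes were chosen with earlier results of these data known. Named genes were all members, all called genes of the imprinted and regulator lists, those nearest 2-fold, genes of the members' domains, and Suz12, Eed and Ezh2. Alternatives changed the test (the methods' t-test, a robust fit with an intensity trend, the replicate number as a block), the filter (40th or 60th percentile), the scaling (array medians subtracted, quantile normalization run again), the 2-fold limit, the probe set rule (averaging those of a gene) and the arrays (each left out). Sequences came from RefSeq tables (GRCr8) and from the labels. Figures used matplotlib 3.10.9.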

Additional observations from a re-analysis of the deposited data

How the results depend on the processing

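The counts of other imprinted genes and of imprint regulators past 2-fold, 6 higher and 0 lower, and 0 higher and 1 lower, were the same under the methods' t-test, both percentile filters, both normalizations, the intensity trend, averaging over a gene's probe sets and each left-out array, although the filter at the 60th percentile left 23 of 43 other imprinted genes. Without the 2-fold limit these became 11 higher and 4 lower, and 1 higher and 8 lower, since smaller changes then count. Leaving out arrays kept 5 member probe sets at least 2-fold higher and gave 1 to 2 lower. Subtracting array medians, which shifts the groups by 0.10, gave 1.28 for Sfmbt2 1380635_at, -0.49 for Gnas 1369897_s_at and -0.04 for Gnas 1387906_a_at, and a second quantile normalization gave -0.03 for the last. Over all probe sets, limma called 961 higher and 123 lower with the 2-fold limit, against 839 and 194 with medians subtracted, and 556 higher and 100 lower of the 13097 left by the filter at the 60th percentile. Same-numbered arrays of the groups did not deviate together (correlations -0.06 to 0.02, against -0.04 to 0.09 for arrays of different numbers). The values thus show no pairing by number, but with so few arrays they cannot exclude it. With the number as a replicate block, 962 probe sets were higher and 123 lower, and Suz12 differed by -2.76. Other imprinted genes were then 6 higher and 0 lower, regulators 0 higher and 1 lower, and member probe sets 5 higher and 1 lower. Mest and Meg3 were dim, so small changes could have been missed.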

Other observations

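Among the other imprinted genes that did not reach 2-fold, 9 differed at an adjusted p under 0.05 from limma; those outside the members' domains, apart from Peg12, were named after their values were seen. The 4 that fell are all maternally expressed in mouse, at least in some tissues. Commd1, whose protein regulates copper handling and NF-kappaB, had log2 values of 7.86, 7.80 and 7.70 in ShSuz12 cells and 8.28, 8.52 and 8.36 in ShControl cells, and fell by 0.60 (standard error 0.08, adjusted p = 6.04e-04 from limma). Gatm, an enzyme gene of creatine synthesis, fell by 0.43 (adjusted p = 7.46e-04 from limma), Trappc9 fell by 0.19 (adjusted p = 0.0346 from limma), and Kcnq1 is described above. Of those that rose, Atp10a changed by 0.40 (adjusted p = 0.00214 from limma) and Impact by 0.21 (adjusted p = 0.0188 from limma). These are values of the brightest probe sets, and dimmer ones of the same genes did not share the change. The dimmer probe set of Gatm had a difference of -0.06 and that of Atp10a 0.00, and those of Impact ran from -0.13 to 0.07. None of these passed an adjusted p of 0.05 from limma. At that limit 6 of 19 paternally expressed genes rose and 0 fell, while 5 of 24 maternally expressed genes rose and 4 fell. Over all genes, 17.1% were higher and 23.3% lower at the same limit, and the maternal counts lie near those shares. The difference between the paternal and the maternal shares was not tested.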
